A study of Homo sapiens with 2 samples.

Results

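Interferon-stimulated genes were compared between 2 human liver cancer lines, SKHEP1 and HepG2, in gene tables from stranded mRNA sequencing. The set was fixed by gene symbol, with earlier results of these data known. It held 51 genes, each found exactly once among the 57820 genes listed for either library. It comprised 47 genes that interferons are known to induce or that carry the interferon response, and the 4 genes for the receptor subunits IFNAR1, IFNAR2, IFNGR1 and IFNGR2. SKHEP1 is a liver cancer line that the labels call endothelial cells, and HepG2 is labelled as hepatocellular carcinoma; each gave 1 library. Both lines had the WT genotype label, both were grown in the same serum-containing medium, and no treatment of either is labelled. The series title concerns PURPL, a long noncoding RNA, and p53 activation.

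Interferons are secreted signals of virus infection. Type I interferons bind the IFNAR1 and IFNAR2 receptor, whose kinases are JAK1 and TYK2; STAT2 and IRF9 belong to the complex that then binds the interferon-stimulated response element. Type II interferon binds IFNGR1 and IFNGR2 and acts through JAK1 and JAK2 at gamma-activated sites. IRF1 and IRF7 are transcription factors that relay or amplify interferon responses. Hepatocytes and endothelial cells are both known to respond to interferons, and many of the induced genes keep a basal level without them.

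The SKHEP1 library held 19940557 expected counts (reads per gene as estimated by RSEM) and the HepG2 library 22477757. A level of 3 counts, used as a floor, was worth 0.148 CPM (counts scaled to a common library size) in SKHEP1 and 0.135 CPM in HepG2. With 1 library per line there is no replicate check and no p-value. The 95% intervals given are exact counting intervals, which cover counting error only. No molecular identifiers are recorded, so reads amplified by PCR are not independent molecules. In bulk RNA, fewer cells expressing a gene and less of its RNA per cell cannot be told apart. The defining genes among 12 endothelial markers did not bear out the endothelial label of SKHEP1. KDR, FLT1, ERG and CLDN5 had 0 counts in both lines, and CDH5 had 1 in SKHEP1 against 5 in HepG2. Other markers of the list, ENG, ROBO4 and EGFL7, had 1926, 343 and 178 counts in SKHEP1 and were at least 4-fold higher there. ESAM of the same list was 8.20-fold higher in HepG2, with 16 counts in SKHEP1 against 144 in HepG2. The low markers VWF and TIE1 had 4 and 10 counts in SKHEP1 and 14 and 18 in HepG2, and TEK had 5 counts in SKHEP1 against 0 in HepG2. All 10 hepatocyte markers were at least 4-fold higher in HepG2, where 13.0% of all genes compared were. SERPINA1 still had 1817 counts in SKHEP1, at 95.5 TPM, and the other 9 had 0 counts there. Of the blood cell markers, the pan-leukocyte gene PTPRC had 5 counts in SKHEP1 against 0 in HepG2, and CD14 had 40 and 58. In SKHEP1 9 of 13 markers and in HepG2 8 of 13 were at 0. Among all genes listed, 39158 in SKHEP1 and 39439 in HepG2 were at 0, so these zeros do not set the markers apart. The 13 markers summed to 2.94 TPM in SKHEP1 and 2024 TPM in HepG2, where lysozyme (LYZ), which is not confined to blood cells, made up 2020 TPM. The part of these markers in the results was not tested.

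Promoter sequences were searched for the elements through which interferons act. RefSeq windows on build GRCh38.p14, which run from 250 bases before to 50 bases after a transcription start, were matched by symbol for 41 of the 51 genes. The deposited tables use hg19, so these windows stand beside the counts as sequence only. The core of the response element, searched as GAAA, then 2 bases of any kind, then GAAA, on either strand, was found in 25 of the 41 genes (61.0%), against 4.38% of the 27305 genes with a window. The gamma-activated site core TTCNNNGAA, which reads the same on both strands, was found in 11 of 41 (26.8%), against 9.38%. In 4 genes a gamma-activated site core overlapped a response element core. A match describes the letters and does not show that a factor binds there.

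The windows of 4 genes that were at least 4-fold higher in SKHEP1 are shown 5′ to 3′ on the gene's strand, with response element cores in capitals. They are shown because all 3 IFIT windows and the HERC5 window hold more than 1 core.
IFIT1, chr10:89392373-89392672, plus strand: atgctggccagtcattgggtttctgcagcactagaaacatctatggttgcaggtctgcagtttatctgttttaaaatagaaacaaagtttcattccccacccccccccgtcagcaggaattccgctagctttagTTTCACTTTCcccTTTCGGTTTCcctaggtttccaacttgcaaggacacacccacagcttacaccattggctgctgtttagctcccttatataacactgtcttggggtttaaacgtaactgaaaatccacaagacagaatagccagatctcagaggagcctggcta
IFIT3, chr10:89327747-89328046, plus strand: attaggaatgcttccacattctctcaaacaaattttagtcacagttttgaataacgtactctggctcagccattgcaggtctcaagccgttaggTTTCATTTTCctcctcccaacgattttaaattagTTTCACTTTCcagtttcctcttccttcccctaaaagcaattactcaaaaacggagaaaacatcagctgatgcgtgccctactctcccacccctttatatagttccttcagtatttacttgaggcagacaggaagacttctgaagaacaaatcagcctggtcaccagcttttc
IFIT5, chr10:89414318-89414617, plus strand: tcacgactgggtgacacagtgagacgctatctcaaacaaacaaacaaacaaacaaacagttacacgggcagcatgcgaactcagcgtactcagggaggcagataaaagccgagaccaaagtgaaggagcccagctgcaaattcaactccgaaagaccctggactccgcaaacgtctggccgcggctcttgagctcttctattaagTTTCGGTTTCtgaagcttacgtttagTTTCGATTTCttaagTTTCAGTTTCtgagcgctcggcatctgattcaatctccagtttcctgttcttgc
HERC5, chr4:88456869-88457168, plus strand: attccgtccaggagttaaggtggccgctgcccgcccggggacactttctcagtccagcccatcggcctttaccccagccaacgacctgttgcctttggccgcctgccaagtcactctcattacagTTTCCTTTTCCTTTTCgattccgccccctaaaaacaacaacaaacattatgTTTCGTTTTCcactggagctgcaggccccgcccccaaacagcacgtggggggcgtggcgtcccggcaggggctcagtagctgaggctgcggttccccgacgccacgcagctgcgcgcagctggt

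The adjacent genes IFI44 and IFI44L are shown because both windows hold the core, while IFI44 had 182 counts in SKHEP1 against 0 in HepG2 and IFI44L had 0 counts in SKHEP1 against 2 in HepG2.
IFI44, chr1:78649581-78649880, plus strand: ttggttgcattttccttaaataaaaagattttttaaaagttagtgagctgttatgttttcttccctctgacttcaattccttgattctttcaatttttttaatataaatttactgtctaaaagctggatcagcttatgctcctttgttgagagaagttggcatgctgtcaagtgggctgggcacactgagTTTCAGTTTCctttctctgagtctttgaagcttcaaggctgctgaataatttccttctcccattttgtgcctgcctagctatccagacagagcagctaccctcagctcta
IFI44L, chr1:78620198-78620497, plus strand: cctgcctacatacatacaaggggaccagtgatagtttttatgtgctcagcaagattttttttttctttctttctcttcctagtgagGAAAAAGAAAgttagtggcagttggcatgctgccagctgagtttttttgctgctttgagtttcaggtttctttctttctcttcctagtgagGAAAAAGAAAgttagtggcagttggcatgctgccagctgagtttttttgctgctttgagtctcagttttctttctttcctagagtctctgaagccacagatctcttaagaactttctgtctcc

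ISG15 and BST2 are shown because they have overlapping cores and were not higher in SKHEP1.
ISG15, chr1:1013247-1013546, plus strand: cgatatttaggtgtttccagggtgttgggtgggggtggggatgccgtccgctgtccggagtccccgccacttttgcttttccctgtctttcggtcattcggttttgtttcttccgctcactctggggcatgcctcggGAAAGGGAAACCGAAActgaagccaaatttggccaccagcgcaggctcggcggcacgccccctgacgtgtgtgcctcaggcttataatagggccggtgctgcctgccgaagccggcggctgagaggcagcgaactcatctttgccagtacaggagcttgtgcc
BST2, chr19:17405581-17405880, minus strand: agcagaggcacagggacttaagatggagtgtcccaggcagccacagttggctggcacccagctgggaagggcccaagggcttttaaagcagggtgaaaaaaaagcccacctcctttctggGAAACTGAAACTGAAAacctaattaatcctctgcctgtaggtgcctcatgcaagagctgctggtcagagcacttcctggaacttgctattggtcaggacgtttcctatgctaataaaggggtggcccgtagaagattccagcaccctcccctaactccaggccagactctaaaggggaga

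Among genes with a window, 10 of the 14 that were at least 4-fold higher in SKHEP1 held a response element core, as did 11 of the 20 within 4-fold. None of the 3 that were at least 4-fold higher in HepG2 (IFNGR1, IFI30 and XAF1) held one, and all 4 genes under 10 counts in both lines (RSAD2, IFITM1, IFI27 and IFI44L) did. Gamma-activated site cores were found in 2 of 14, 7 of 20, 0 of 3 and 2 of 4 of these groups. Of 47 response element cores counted over all windows of the set, 43 began within 200 bases before a start. A core in 2 overlapping windows, as for IFI44, IFI27 and the pair PARP9 and DTX3L, was counted in each. That stretch is 200 of the 300 bases of a window, and the share for other genes was not computed.

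**Figure D1:**
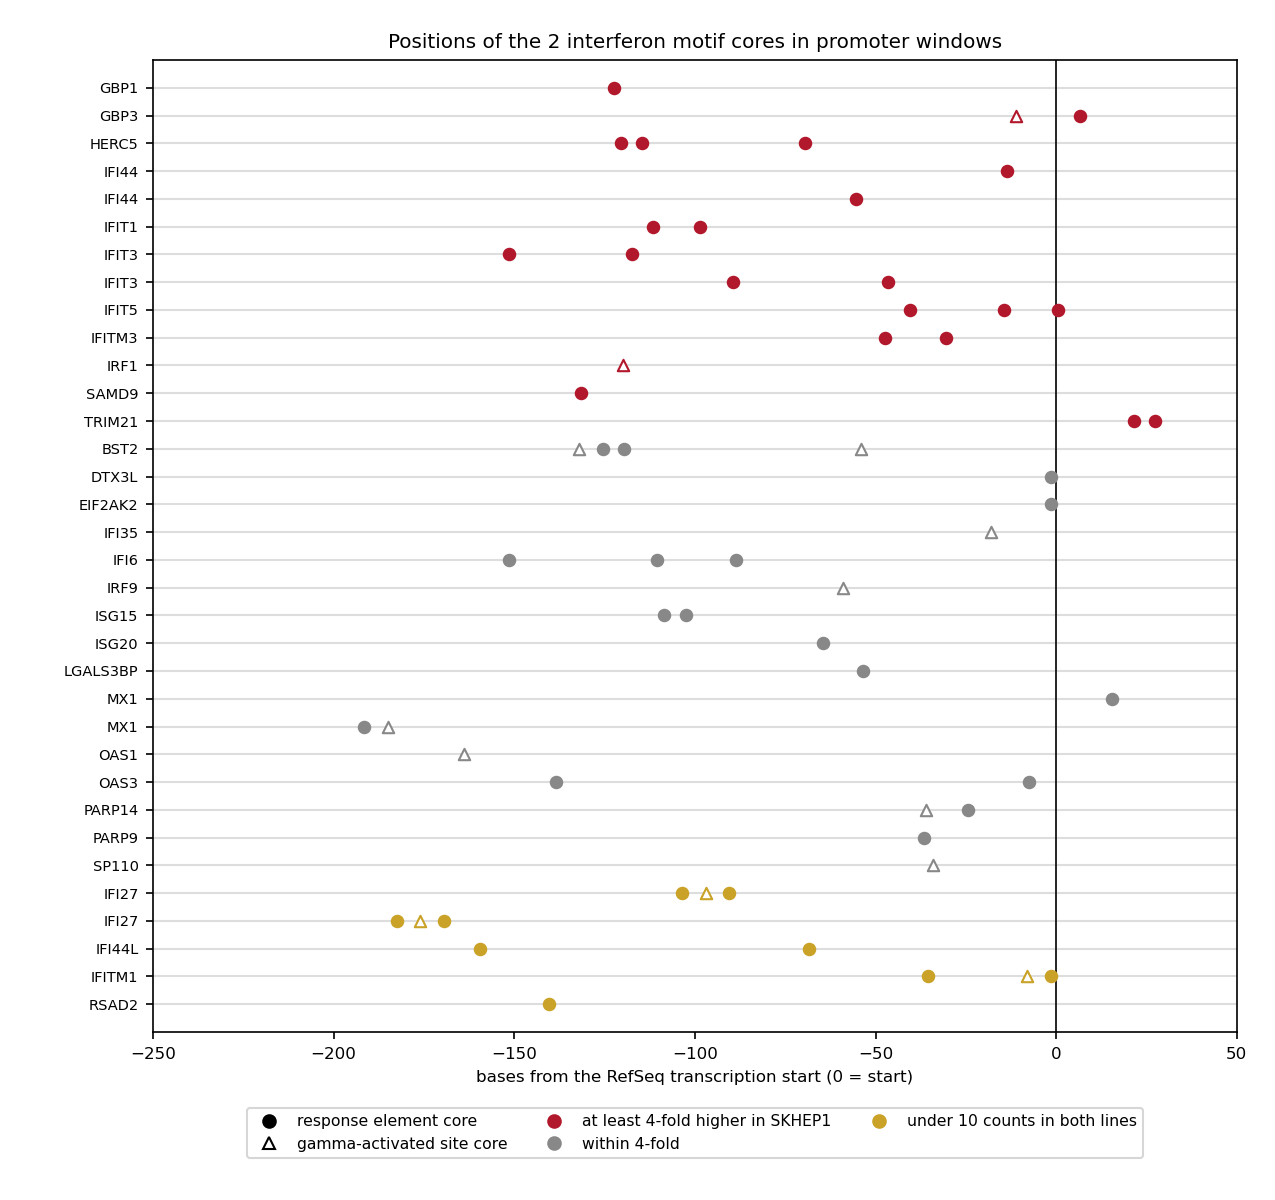
Position of each motif core in the promoter windows that hold one, in bases from the RefSeq start, with 1 row per window. Circles mark response element cores and triangles gamma-activated site cores, coloured by how the gene compared between the lines; most of the 47 circles lie within 200 bases before the start, in genes higher in SKHEP1 and in genes within 4-fold alike.

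Of the 47 genes compared, 38 had a ratio above equality, as did 7877 of all 15436 genes compared, and 9 had a ratio below it, as did 7559 (49.0%). Levels are given in TPM, deposited abundances scaled for gene length and library size; ratios are of CPM after TMM scaling. The median level of the 51 genes was 20.2 TPM in SKHEP1 and 7.59 TPM in HepG2, and 37 genes in SKHEP1 against 20 in HepG2 reached 10 TPM. Summed over the set, SKHEP1 had 2785 TPM and HepG2 1268 TPM. IFITM2, IFITM3 and LGALS3BP alone made up 55.4% of that sum in SKHEP1 and 44.8% in HepG2. The median TPM and the number of genes at 10 TPM were not computed for all genes. TPM is a share of a library, and the 10 hepatocyte markers summed to 50414 TPM in HepG2 against 95.5 TPM in SKHEP1. The part of such shares in these levels was not tested.

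The comparison was limited to genes that reached 10 counts in 1 of the libraries, which left 47 of the 51, and a ratio of 4 or more was counted as higher in a line. In SKHEP1 20 of the 47 (42.6%) were higher, where 16.5% of the 15436 genes compared across the whole table were. In HepG2 4 (8.51%) were higher, where 13.0% of all genes compared were. The other 23 (48.9%) lay within 4-fold, where 70.5% of all genes did. The median log2 ratio, SKHEP1 over HepG2, was 1.30 for the 47 genes and 0.03 for all genes compared. Over all 51 genes, with counts under 3 set to the floor, 20 genes passed 4-fold in favour of SKHEP1, 4 in favour of HepG2 and 27 did not, and the median was 1.12. Counting intervals lay above equality for 37 of the 47 and below it for 8, and held it for GBP2 and ISG20. Over all genes compared they lay above it for 43.1% and below it for 41.3%.

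**Figure D2:**
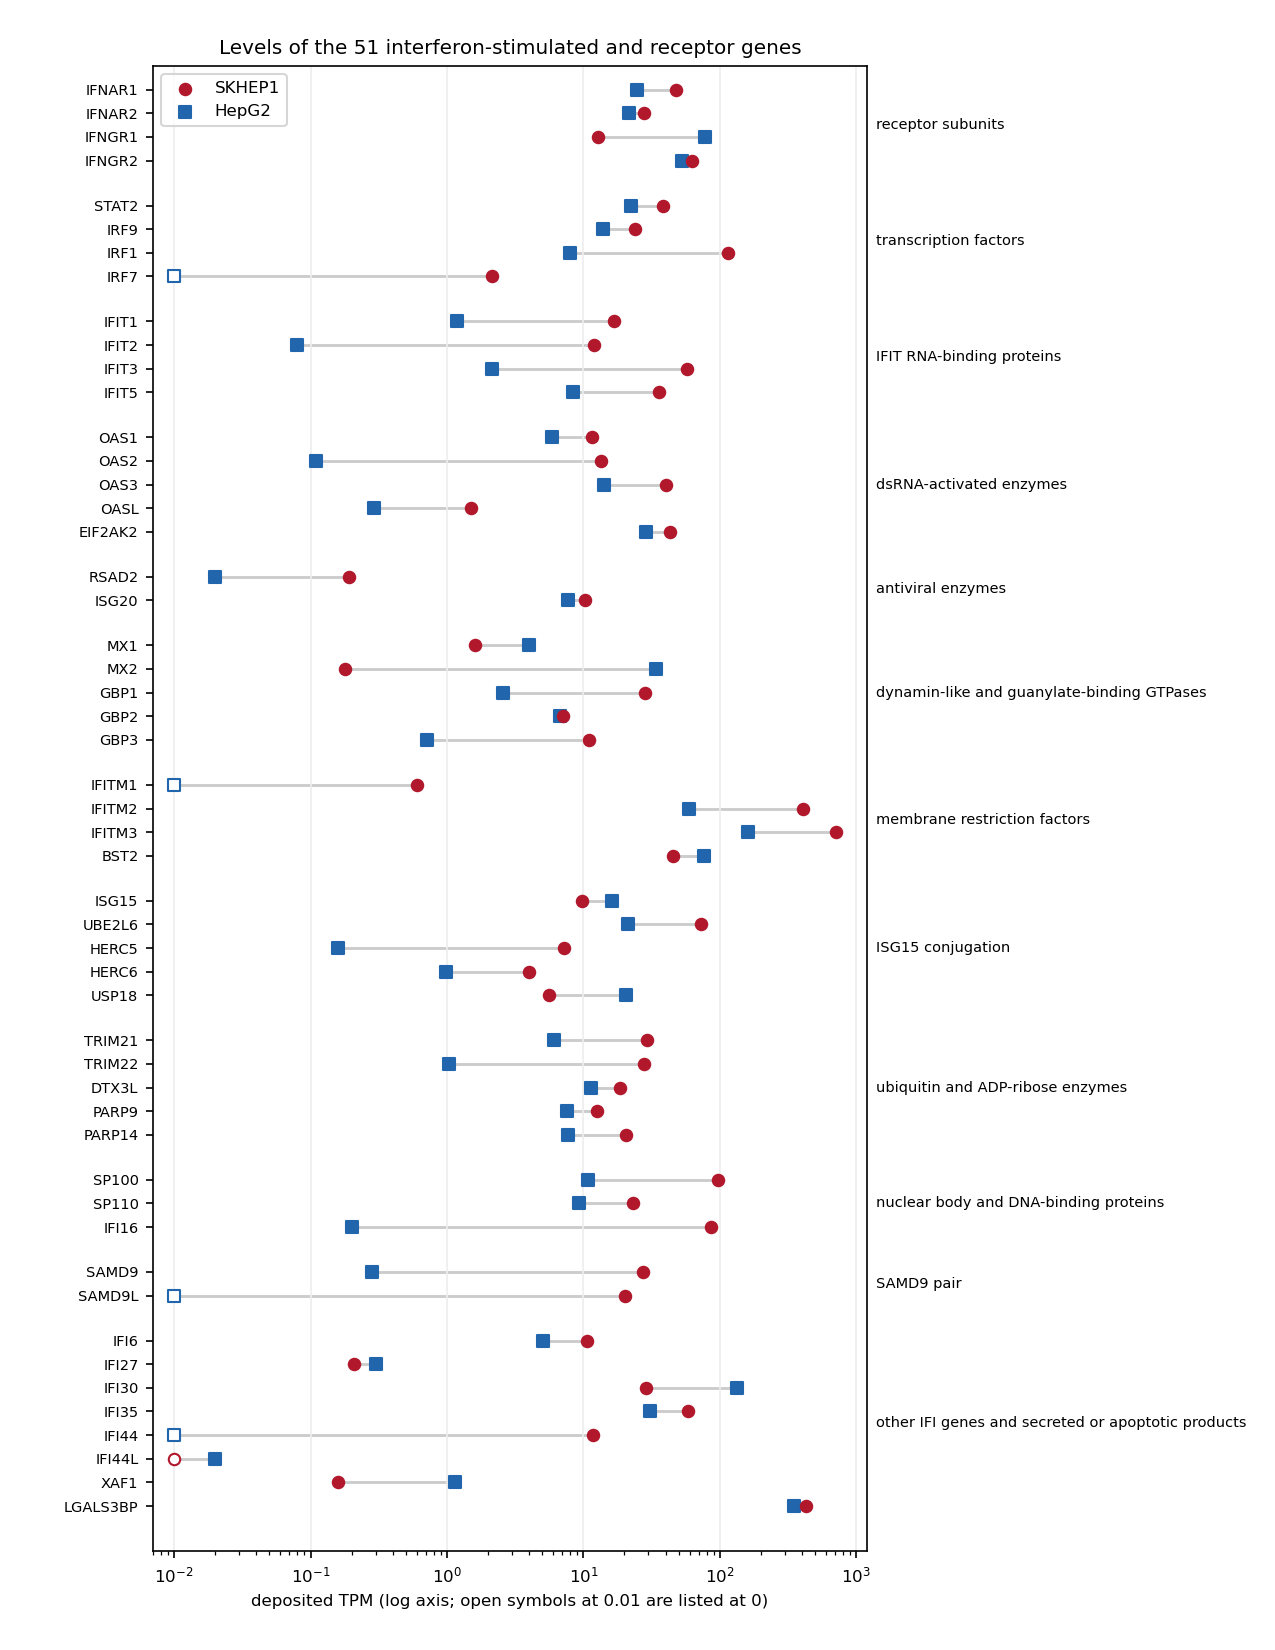
Deposited TPM of all 51 genes on a log axis, grouped by role, with SKHEP1 as circles and HepG2 as squares; open symbols at the left edge are listed at 0. IFIT2, OAS2, SAMD9, SAMD9L and IFI16 lie far apart with SKHEP1 on the right, and MX2 lies far apart with HepG2 on the right.

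**Figure D3:**
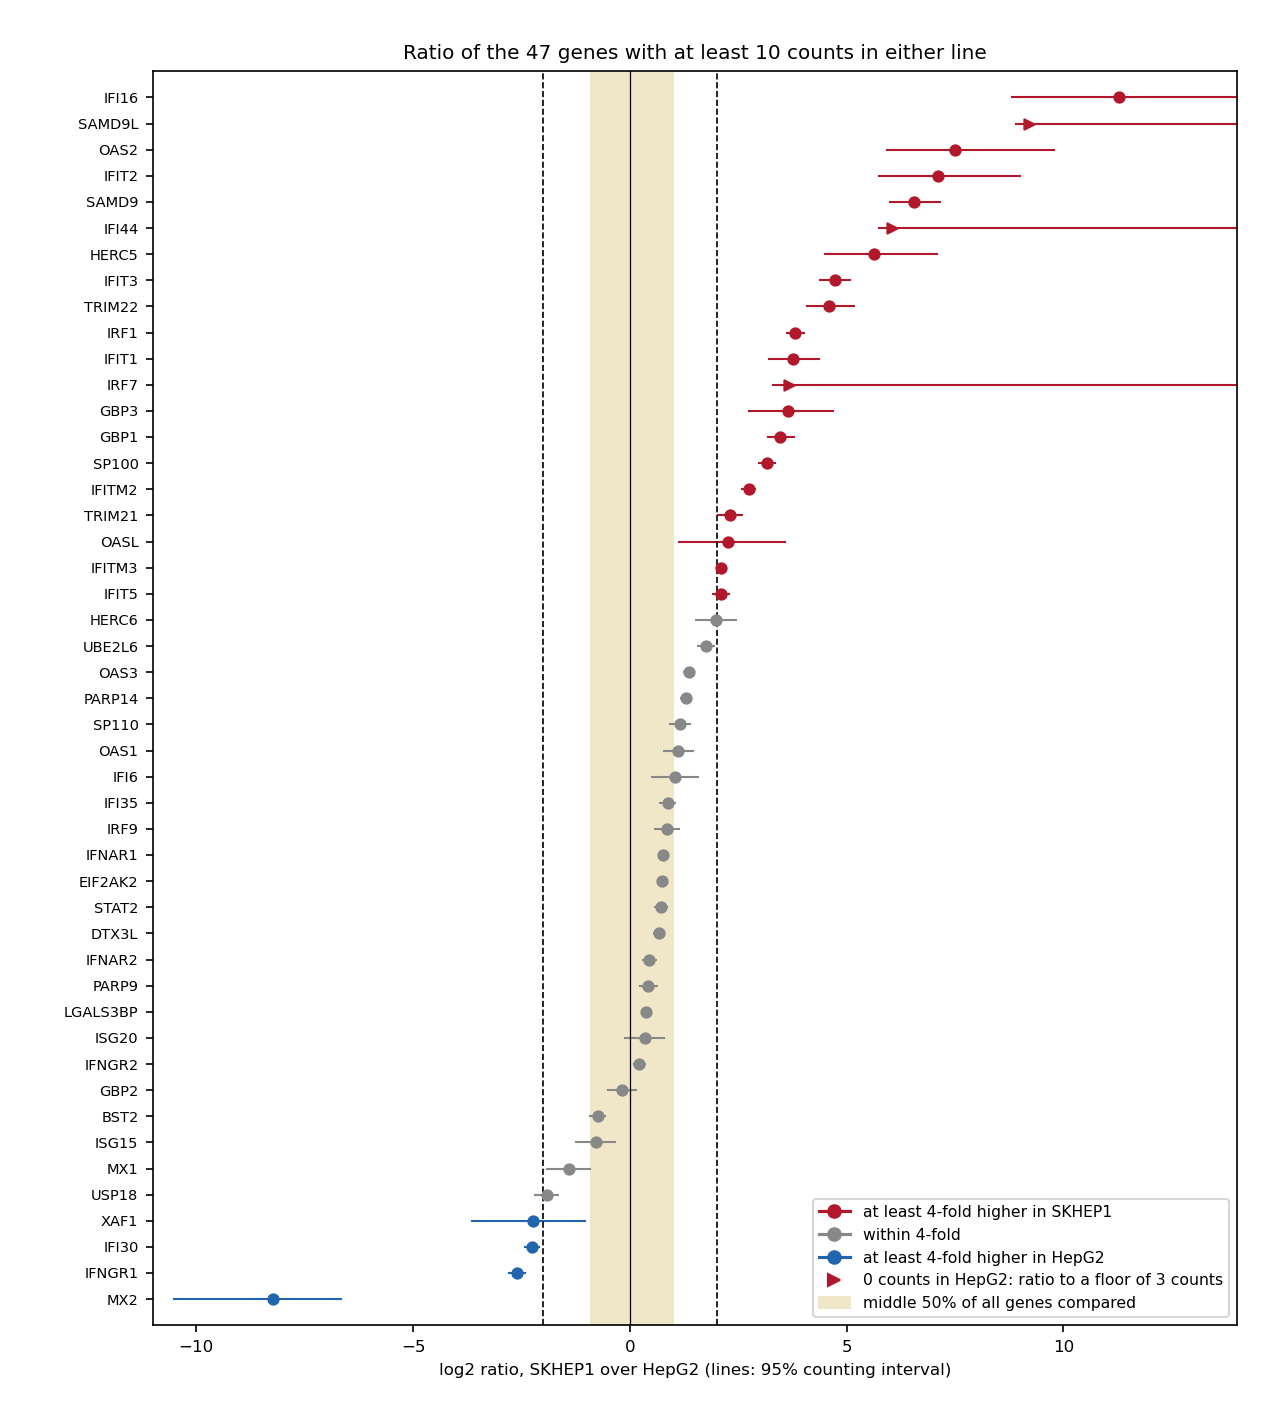
The log2 ratio, SKHEP1 over HepG2, of the 47 genes with at least 10 counts in either line, from highest to lowest; points are observed ratios, triangles are ratios to a floor of 3 counts, and lines are 95% counting intervals. Dashed lines mark 4-fold, the shaded band holds the middle 50% of all genes compared, and 20 genes lie past the right dashed line and 4 past the left.

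Of the 4 receptor subunits, 3 lay within 4-fold and IFNGR1 was higher in HepG2. IFNAR1 and IFNAR2, which form the type I receptor, were at 47.4 and 27.8 TPM in SKHEP1 and at 24.7 and 21.6 TPM in HepG2, ratios of 1.70 (interval 1.59 to 1.82) and 1.37 (1.23 to 1.53). IFNGR2, the signalling subunit of the type II receptor, was at 62.5 TPM in SKHEP1 and 52.6 TPM in HepG2. IFNGR1, the ligand-binding subunit of the type II receptor, was at 12.7 TPM in SKHEP1 and 78.0 TPM in HepG2, 6.07-fold higher in HepG2 (5.39 to 6.85). Both lines therefore had reads of every subunit of both receptors, with 315 counts for the lowest, IFNGR1 in SKHEP1. IFNAR2 had a fractional expected count in both lines, as RSEM gives when reads are shared between genes.

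Of the 4 transcription factors, IRF1 and IRF7 were higher in SKHEP1 and the DNA-binding partners STAT2 and IRF9 lay within 4-fold. IRF1, which is itself induced through a gamma-activated site, was at 116 TPM in SKHEP1 and 7.99 TPM in HepG2, with 2820 and 220 counts and a ratio of 14.1 (12.3 to 16.2). The RefSeq window of IRF1 held 1 gamma-activated site core, which began at position -124 from the start, and no response element core. IRF7, the factor that amplifies type I interferon production, had 35 counts in SKHEP1 against 0 in HepG2, at only 2.14 TPM in SKHEP1. Its ratio against the floor was 12.8, with an interval from 9.88 upward. STAT2 was at 38.5 TPM in SKHEP1 and 22.2 TPM in HepG2 (ratio 1.65), and IRF9 at 23.9 and 13.9 TPM (1.81).

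All 4 IFIT genes were higher in SKHEP1. They lie next to each other on chromosome 10 and encode proteins that bind viral RNA or regulate its binding. IFIT2 had 506 counts in SKHEP1 against 4 in HepG2, a ratio of 139 (53.9 to 511.7), at 12.1 and 0.08 TPM. IFIT3, which stabilises IFIT1 on RNA, had 1682 counts in SKHEP1 against 70 in HepG2, a ratio of 26.4 (20.8 to 34.0). IFIT1 had 359 counts in SKHEP1 against 29 in HepG2, a ratio of 13.6 (9.30 to 20.6). IFIT5 had the smallest ratio of the family, 4.27 (3.76 to 4.87), and was also the IFIT gene with the highest level in HepG2, with 35.8 TPM in SKHEP1 and 8.40 TPM in HepG2. In SKHEP1 the order of levels was IFIT3 (57.8 TPM), IFIT5, IFIT1 (16.7 TPM) and IFIT2.

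The enzymes activated by double-stranded RNA were all higher in SKHEP1 by the observed ratio, 2 of 5 by 4-fold or more. OAS2, a synthase of the 2-5A messenger that activates RNase L, had 493 counts in SKHEP1 against 3 in HepG2, a ratio of 180 (61.4 to 877.9). Its neighbours on chromosome 12 were read in both lines: OAS1 was at 11.6 TPM in SKHEP1 and 5.87 TPM in HepG2 (ratio 2.18), and OAS3, the largest synthase, at 40.3 and 14.2 TPM (2.56). OASL, a relative without synthase activity, had 35 counts in SKHEP1 against 8 in HepG2, a ratio of 4.80 whose interval ran from 2.19 to 12.0. EIF2AK2, the kinase PKR that blocks translation, was at 42.8 TPM in SKHEP1 and 28.9 TPM in HepG2 (1.67). OAS1, OAS3 and EIF2AK2 all lay within 4-fold.

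Both antiviral enzymes outside that group were low or similar. RSAD2, or viperin, which makes a chain-terminating nucleotide, had 5 counts in SKHEP1 against 1 in HepG2 and was not compared. ISG20, an exonuclease, had 90 counts in SKHEP1 against 78 in HepG2, a ratio of 1.27 whose interval (0.925 to 1.74) held equality.

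Of the 5 GTPases of the response, GBP1 and GBP3 were higher in SKHEP1, MX2 was higher in HepG2, and MX1 and GBP2 lay within 4-fold. MX2, a nuclear-envelope restriction factor of retroviruses, had 3 counts in SKHEP1 against 986 in HepG2, 0.18 and 33.9 TPM. It was 299-fold higher in HepG2 (102.1 to 1454), and no other gene of the set was over 10-fold higher there. Its log2 ratio of -8.23 was -7.56 with TPM and -7.49 with a prior count of 2. Its neighbour MX1, which blocks influenza and other viruses in the cytoplasm, had 48 counts in SKHEP1 against 140 in HepG2, an observed 2.66-fold in favour of HepG2 (1.90 to 3.77). The guanylate-binding proteins are GTPases that coat intracellular pathogens. GBP1 had 1012 counts in SKHEP1 against 100 in HepG2, a ratio of 11.1 (9.04 to 13.8), and GBP3 had 125 and 11, a ratio of 12.5 (6.74 to 25.6). GBP2, of the same cluster on chromosome 1, had 151 counts in SKHEP1 against 188 in HepG2, a ratio of 0.882 (0.707 to 1.10). It was at 7.06 TPM in SKHEP1 and 6.72 TPM in HepG2, so the sign of its log2 ratio depends on the unit.

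Among the membrane restriction factors, IFITM3 and IFITM2 were the abundant ones and were higher in SKHEP1. IFITM3, which blocks fusion of incoming viruses in endosomes, was at 713 TPM in SKHEP1 and 162 TPM in HepG2, a ratio of 4.28 (4.04 to 4.54). In SKHEP1 it ranked 200 by TPM among the 15436 genes compared, the highest place of the set. IFITM2 was at 405 TPM in SKHEP1 and 59.3 TPM in HepG2, a ratio of 6.69 (6.01 to 7.46). IFITM1 of the same cluster on chromosome 11 was nearly unread, with 5 counts in SKHEP1 against 0 in HepG2. The IFITM genes are close copies and had fractional expected counts, so the split between them is uncertain; their sum was 7943.0 in SKHEP1 against 1814 in HepG2, a ratio of 4.81 (4.57 to 5.06). BST2, or tetherin, which holds budding virus on the cell surface, was at 45.6 TPM in SKHEP1 and 76.7 TPM in HepG2, an observed 1.68-fold in favour of HepG2 (1.50 to 1.88).

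Of the 5 genes of the ISG15 pathway, HERC5 was higher in SKHEP1 and the other 4 lay within 4-fold. ISG15, the ubiquitin-like modifier itself, had 64 counts in SKHEP1 against 121 in HepG2, an observed 1.72-fold in favour of HepG2 (1.26 to 2.37). USP18, which removes ISG15 and restrains the type I receptor, had 138 and 572, an observed 3.78-fold in favour of HepG2 (3.13 to 4.58); it has a near copy, USP41, and its HepG2 count was fractional, so its value is uncertain. Among the conjugating enzymes, UBE2L6, the ISG15 E2 enzyme, was at 73.2 TPM in SKHEP1 and 21.1 TPM in HepG2 (3.38), and HERC5, the main ISG15 ligase, had 271 counts in SKHEP1 against 6 in HepG2, a ratio of 49.6 (22.5 to 136.3). HERC6, adjacent to HERC5, had 183 counts in SKHEP1 against 51 in HepG2, a ratio of 3.94 (2.87 to 5.48), just inside the limit.

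The ubiquitin and ADP-ribose enzymes were higher in SKHEP1 for TRIM22 and TRIM21 and within 4-fold for the other 3. TRIM22, a ligase that represses viral transcription, had 687 counts in SKHEP1 against 31 in HepG2, a ratio of 24.3 (17.0 to 36.1). TRIM21, a cytosolic antibody receptor, had 641 and 142, a ratio of 4.96 (4.13 to 5.99). DTX3L and PARP9, which act as a complex, were at 18.6 and 12.5 TPM in SKHEP1 and at 11.3 and 7.59 TPM in HepG2, ratios of 1.59 and 1.34. These 2 genes are transcribed in opposite directions from overlapping promoter windows, and the strand setting of the counting is not given, so reads near their starts could be exchanged. PARP14, a mono-ADP-ribosyltransferase beside them on chromosome 3, was at 20.5 TPM in SKHEP1 and 7.75 TPM in HepG2 (2.46).

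All but SP110 of the nuclear proteins and SAMD9 genes were higher in SKHEP1. IFI16, a nuclear DNA sensor, had 2282 counts in SKHEP1 against 1 in HepG2, a ratio of 2505 with a wide interval of 449.2 to 99000. SAMD9L had 1610 counts in SKHEP1 against 0 in HepG2, a ratio of 589 against the floor with an interval from 478.6 upward. With TPM in place of counts the log2 ratios were 7.19 in place of 9.71 for IFI16, both with HepG2 set to the floor, and 7.97 in place of 9.20 for SAMD9L. SAMD9, the neighbour of SAMD9L on chromosome 7, had 2295 and 27, a ratio of 93.3 (64.0 to 141.9); both encode growth-restraining antiviral factors. SP100, a component of nuclear bodies, was at 97.1 TPM in SKHEP1 and 10.8 TPM in HepG2, a ratio of 8.95 (7.86 to 10.2), while its relative and neighbour SP110 was at 23.1 and 9.29 TPM (2.22).

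The remaining 8 genes, most of them named for their discovery as interferon-induced, showed no common direction. IFI44 had 182 counts in SKHEP1 against 0 in HepG2, a ratio of 66.6 against the floor with an interval from 53.6 upward. The adjacent IFI44L had 0 counts in SKHEP1 against 2 in HepG2. IFI30, a lysosomal thiol reductase of antigen processing, was at 28.9 TPM in SKHEP1 and 134 TPM in HepG2, 4.76-fold higher in HepG2 (4.24 to 5.36). XAF1, a pro-apoptotic protein, had 7 and 36 counts, 4.68-fold higher in HepG2 with an interval of 2.06 to 12.5. The secreted glycoprotein LGALS3BP was abundant in both lines, at 426 TPM in SKHEP1 and 348 TPM in HepG2 (1.29). IFI35 was at 58.9 and 30.9 TPM (1.83) and IFI6, a mitochondrial survival protein, at 10.7 and 5.07 TPM (2.06). IFI27 was under the floor in both, with 1 count in SKHEP1 against 2 in HepG2.

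Neighbouring genes of the set often differed in size of ratio. By RefSeq gene order, 29 of the 51 lay in 11 blocks with at most 5 other protein-coding genes between them. Of the genes at least 4-fold higher in HepG2, only MX2 lay in a block, beside MX1 alone. That was the only block that could have held genes higher in different lines, and MX1 lay within 4-fold. The IFIT and SAMD9 blocks were past 4-fold throughout. The block of IFNAR2, IFNAR1 and IFNGR2 on chromosome 21 and the block of PARP9, DTX3L and PARP14 lay within 4-fold throughout. In the OAS, GBP, HERC, SP100, IFI44, IFITM and MX blocks, genes past 4-fold stood beside genes that were within 4-fold or under the count minimum.

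The rest of the pathway was followed in lists written from textbook knowledge, but with earlier results of these data known. No read of an interferon was counted in either line: all 21 listed ligand genes, among them IFNB1, IFNG and IFNL1, had 0 counts, which allows up to 3 counts in each library. Among all genes listed, 39158 in SKHEP1 and 39439 in HepG2 had 0 counts. Of 7 genes for signalling and other receptor subunits, 6 (85.7%) lay within 4-fold, where 70.5% of all genes compared did. With only 7 genes these shares cannot be told apart. The kinases JAK1 and JAK2 had ratios of 2.23 and 2.17, TYK2 0.868, and STAT3 1.05. IFNLR1, the specific subunit of the type III receptor, had 19 counts in SKHEP1 against 333 in HepG2, 16.0-fold higher in HepG2.

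Of 12 negative regulators, 9 lay within 4-fold, 1 was higher in SKHEP1 and 2 (16.7%) were higher in HepG2. These shares are near those of all genes compared, which are 70.5% within 4-fold and 13.0% in favour of HepG2. SOCS3, a feedback inhibitor of JAK kinases, had 424 counts in SKHEP1 against 9 in HepG2, a ratio of 51.7, while SOCS1 had 43 in each (1.10). The phosphatase gene PTPN6 had 8 counts in SKHEP1 against 177 in HepG2, 20.2-fold higher in HepG2, and CISH, named here after its values were seen, had 9 and 60.

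A second list held 57 interferon-stimulated genes outside the set. It was also chosen with earlier results of these data known, so it is no independent check of the set. Of the 49 compared, 15 (30.6%) passed 4-fold in favour of SKHEP1 and 2 (4.08%) in favour of HepG2, while 32 (65.3%) did not pass it. For all genes compared these shares were 16.5%, 13.0% and 70.5%. The median log2 ratio of the list was 1.18, against 0.03 for all genes compared. The helicase-like genes DDX60L and DDX60 had 934 and 447 counts in SKHEP1 and 2 and 7 in HepG2, and SLFN5 had 2163 and 25. GBP4, of the same cluster as GBP1, had 135 counts in SKHEP1 against 0 in HepG2. The immunoproteasome gene PSMB9 had 966 counts in SKHEP1 against 76 in HepG2. The transcription partner gene NMI was 8.26-fold higher in SKHEP1, the antiviral deaminase gene APOBEC3G 11.8-fold and TRIM34 28.5-fold; reads of the APOBEC3 and TRIM genes can be shared with close relatives. The death ligand TNFSF10 went the other way, with 4 counts in SKHEP1 against 216 in HepG2, and CMPK2, named after its values were seen, had 3 and 19. The chemokine genes CXCL9 and CXCL10 had 0 counts in both lines.

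**Figure D4:**
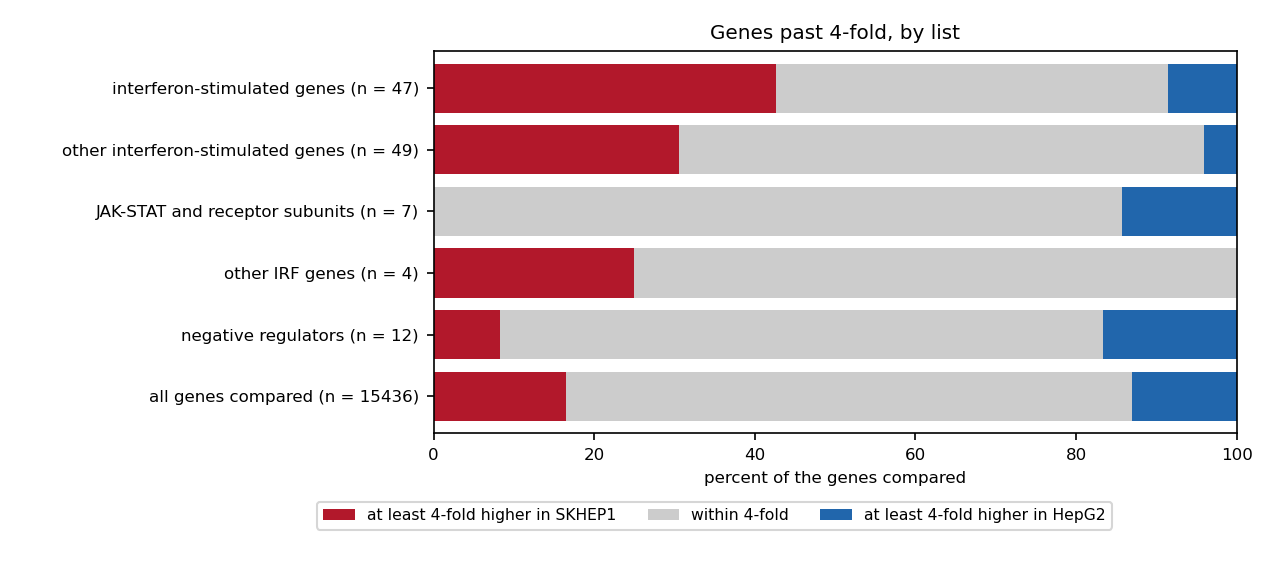
Share of the genes compared that were at least 4-fold higher in SKHEP1, within 4-fold, or at least 4-fold higher in HepG2, for the set, for 4 lists of the interferon pathway and for all genes compared. The set has 42.6% higher in SKHEP1 and the second list 30.6%, beside 16.5% of all genes. The signalling list has 0 of 7, too few genes to set against that share.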

How the data were processed

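Stranded mRNA libraries of SKHEP1 and HepG2, 1 per line, were grouped by the cell line labels. Per the submitters' processing notes, cutadapt, STAR, RSEM and DESeq2 were used with build hg19; no source used here gives versions, annotation or strand setting. Per the file headers, the deposited tables hold RSEM expected counts, which need not be whole. They also hold the deposited TPM and FPKM values and isoform-weighted lengths, per the file headers.

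Expected counts were rounded and scaled to CPM with TMM in edgeR 4.0.16 (R 4.3.3). Genes whose expected count reached 10 in 1 of the libraries were compared as SKHEP1 over HepG2; a ratio of at least 4 counted as higher. A count under 3 was set to a floor of 3 counts per library. A ratio against 0 counts is given against the floor, with the lower bound of its interval. One against 1 to 3 counts is given as observed, with its interval. Intervals are exact conditional Clopper-Pearson intervals of the ratio at 95%. The comparison was tested on simulated counts that held counting error only, with 8-fold changes put into 200 genes well above the floor. That test did not cover variation between libraries or changes in genes near the floor. Motifs were searched in RefSeq promoter windows (GRCh38.p14). Scripts ran in Python 3.11.15 with scipy 1.17.1 for intervals, pandas 2.3.3 for tables and matplotlib 3.10.9 for figures.

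The genes and lists were chosen with earlier results of these data known. All 51 genes of the set are accounted for. From the other lists, genes past 4-fold with at least 100 counts in the higher library were named, at most the 8 with the largest ratio per direction, and JAK1, JAK2, TYK2, STAT3, SOCS1 and SOCS3. Some genes that this rule takes are not reported here. The alternatives were other library scalings (total counts, DESeq2 1.42.0 size factors), the deposited TPM or FPKM, a prior count, unrounded counts, other count minimums and fold limits, the counting bound, and leaving out groups of genes.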

Additional observations from a re-analysis of the deposited data

How the results depend on the processing

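No paired analysis was possible because each line has 1 library, and for the same reason no replicate could be left out. Under total counts, DESeq2 size factors, TPM, FPKM, a prior count and unrounded counts, 20 or 21 genes of the set were higher in SKHEP1 and 3 or 4 in HepG2. HERC6 passed 4-fold with total counts, TPM and FPKM, XAF1 came within 4-fold with a prior count of 2, and GBP2 changed sign with TPM and FPKM. With TPM the log2 ratio of IFI16, with HepG2 at the floor, was 7.19 in place of 9.71, that of SAMD9L 7.97 in place of 9.20 and that of IFI44 5.42 in place of 6.06. For genes higher in HepG2, MX2 was at -7.56 with TPM, -7.51 with FPKM and -7.49 with a prior count in place of -8.23, and XAF1 at -2.83 with TPM in place of -2.23. With a prior count OAS2 was at 6.76 in place of 7.495, IRF7 at 4.34 in place of 3.68, SAMD9L at 9.79 and IFI44 at 6.66. No gene past 4-fold changed direction. These alternatives shifted the log2 ratios of all genes compared by a median of at most 0.045, so such a change was unlikely from the outset. The median log2 ratio of 1.30 was 1.12 with a minimum of 1 count, 1.13 at the counting bound, and 1.76 without the receptor subunits, and the mean was 1.91. With a limit of 2-fold, 14 genes of the set lay within it, and with 8-fold 1 gene was higher in HepG2. Without the IFITM and GBP genes 16 of 42 were higher in SKHEP1.

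In the second list, 26 genes were higher in SKHEP1 at 2-fold, and 1 in HepG2 with TPM, FPKM, a prior count, a minimum of 50 counts, 8-fold or the counting bound. At 2-fold, 2 signalling genes were higher in SKHEP1 and 1 other interferon regulatory factor in HepG2. With a minimum of 50 counts 0 such factors were higher in SKHEP1, and 1 negative regulator was higher in HepG2 at 8-fold or at the counting bound. The changes with another limit or minimum follow from its construction; for the others the cause was not tested. Depth limits the genes at or under 3 counts in 1 line, such as IFI16 and SAMD9L, whose ratios have no upper bound or a wide one.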

Other observations

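The deposited isoform-weighted gene length, a readout that does not enter the ratio of counts, was compared for the 31 genes of the set with at least 50 counts in both lines. None differed by 1.2-fold or more, and 20 differed by at most 5%. PARP9 had a length of 3118 bases in SKHEP1 against 3680 in HepG2, and GBP2 1874 and 2131. Both were longer in HepG2, by 1.18-fold for PARP9 and 1.14-fold for GBP2. EIF2AK2 and OAS1 were longer in SKHEP1, by 1.16-fold for EIF2AK2 and 1.12-fold for OAS1. A difference of this kind reflects how reads were assigned among the transcripts of a gene, of which the tables list 7 for PARP9 and 4 for GBP2.

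Expected counts were fractional in at least 1 line for 10 of the 51 genes: IFNAR2, IRF9, GBP1, GBP3, IFITM1, IFITM2, IFITM3, USP18, SP100 and IFI30. For GBP1, GBP3 and SP100 the fraction was small and in SKHEP1 only, at 1011.98, 125.01 and 2111.01. Which gene shared the reads was not determined. Summed over GBP1, GBP2 and GBP3 the expected count was 1288 in SKHEP1 against 299.0 in HepG2, a ratio of 4.73 (4.17 to 5.38).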
